A study of Mus musculus with 10 samples.

Results

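The livers described here came from male LTKO mice given an adeno-associated virus that carried either FST288, the short isoform of follistatin, or green fluorescent protein (GFP). The members were taken by the titles of the samples: 2 arrays titled LTKO with FST288 and 2 titled LTKO with GFP, which are 4 of the 10 arrays of the series. All 4 LTKO livers carried the same mutations and a virus, so by the labels the groups differ in the viral cargo. In the other 6 arrays, wild-type male mice on a high-fat diet (HFD) received the same viruses, 3 with each cargo. The TBG promoter in the vector drives expression in hepatocytes, the mice had been infected for about 2 weeks and were fasted before the tissue was taken. LTKO is not spelled out in the labels; as background, the name stands for livers that lack the insulin receptor substrates Irs1 and Irs2 together with the transcription factor Foxo1. The labels give neither the age of the mice nor the diet of the LTKO mice, and do not say whether the arrays of a group are different mice; the spread behind the p-values is that between these arrays, which may be partly technical.

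Follistatin is a secreted protein that binds activins and some related ligands of the TGF-beta family and keeps them from their receptors, which signal through SMAD proteins. The liver is a source of follistatin and of the activin subunits Inhbc and Inhbe. Insulin acts on hepatocytes through the IRS proteins and AKT, which keeps FoxO1 out of the nucleus, and Fst is itself among the genes that FoxO1 turns on. The comparison asks which liver genes differ when the vector supplies follistatin to livers without IRS proteins and FoxO1.

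Total RNA was hybridised to whole-transcript arrays, and the values are log2 RMA values, so a difference of 1 is a 2-fold change. Of 41345 transcript clusters, 23521 mapped to 1 gene symbol, which gave 22180 genes. The number of arrays limits the precision: the median SD between replicates was 0.117 in the LTKO GFP group and 0.113 in the LTKO FST288 group, and an exact permutation test of 2 against 2 cannot give a two-sided p below 0.333. The tests below are therefore limma's moderated tests, in which all 10 arrays share the estimate of the spread. The labels were checked first. Irs1 was at 3.02 to 3.35 on the LTKO arrays and at 4.75 to 5.14 on the HFD arrays, Irs2 at 2.49 to 3.36 against 4.02 to 4.37, and Foxo1 at 4.58 to 5.15 against 6.60 to 6.86. The median of the 9 hepatocyte markers was 12.17 to 12.37 on the 4 LTKO arrays, with Alb at 13.11 to 13.21. FST288 replicate 2 stood apart from the other LTKO arrays. The FST288 replicates differed by more than 1 in 237 genes, 178 of them higher on replicate 2, whereas the GFP replicates differed that much in 102 genes. Pancreatic acinar markers, which were high on HFD FST288 replicates 2 and 3 (medians 8.43 and 7.33 against 2.49 on replicate 1), had medians of 2.20 to 2.37 on the LTKO arrays.

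Few genes passed the test of FST288 against GFP in LTKO livers. Of the 22180 genes, 37 (0.167%) passed an adjusted p of 0.05, 22 (0.0992%) higher and 15 (0.0676%) lower with FST288. An unadjusted p under 0.05 was reached by 1050 genes (4.73%) that were higher and 1163 (5.24%) that were lower. With 2 arrays a group, a small number of calls does not show that few genes changed. The genes that fell included the arrestin Arrdc3, the cytochrome P450 Cyp3a13, the taurine enzyme Csad, the glutathione enzyme Gclc, the sterol exporter Abcg8, the desaturase Scd1 and the lipase inhibitor Angptl8. Among the genes that rose were MHC genes (H2-Eb1, H2-T23, H2-Q4), the sterol enzyme Msmo1, the lipid droplet protein Cidec, the peroxisomal thiolase Acaa1b and Fst. The rise was at least 2-fold in 13 genes and the fall at least 2-fold in 8. In all 37 genes the FST288 arrays lay wholly above or below the GFP arrays, a pattern that 16.8% of all genes showed upward and 21.1% downward. The median change over all genes was -0.02. FST288 replicate 2 was above replicate 1 in 13 of the 22 rises and below it in 11 of the 15 falls. Leaving out each of the 10 arrays in turn, 7 of the 37 calls held in every fit, those of Arrdc3, Serpina4-ps1, Cyp3a13, Csad, Etnppl, Gclc and Meiob, and 30 were lost in at least 1. The number lost was 24 without LTKO GFP replicate 2, 20 without LTKO GFP replicate 1, 19 without LTKO FST288 replicate 2, 5 without LTKO FST288 replicate 1 and 14 to 17 without an HFD array.

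**Figure D1:**
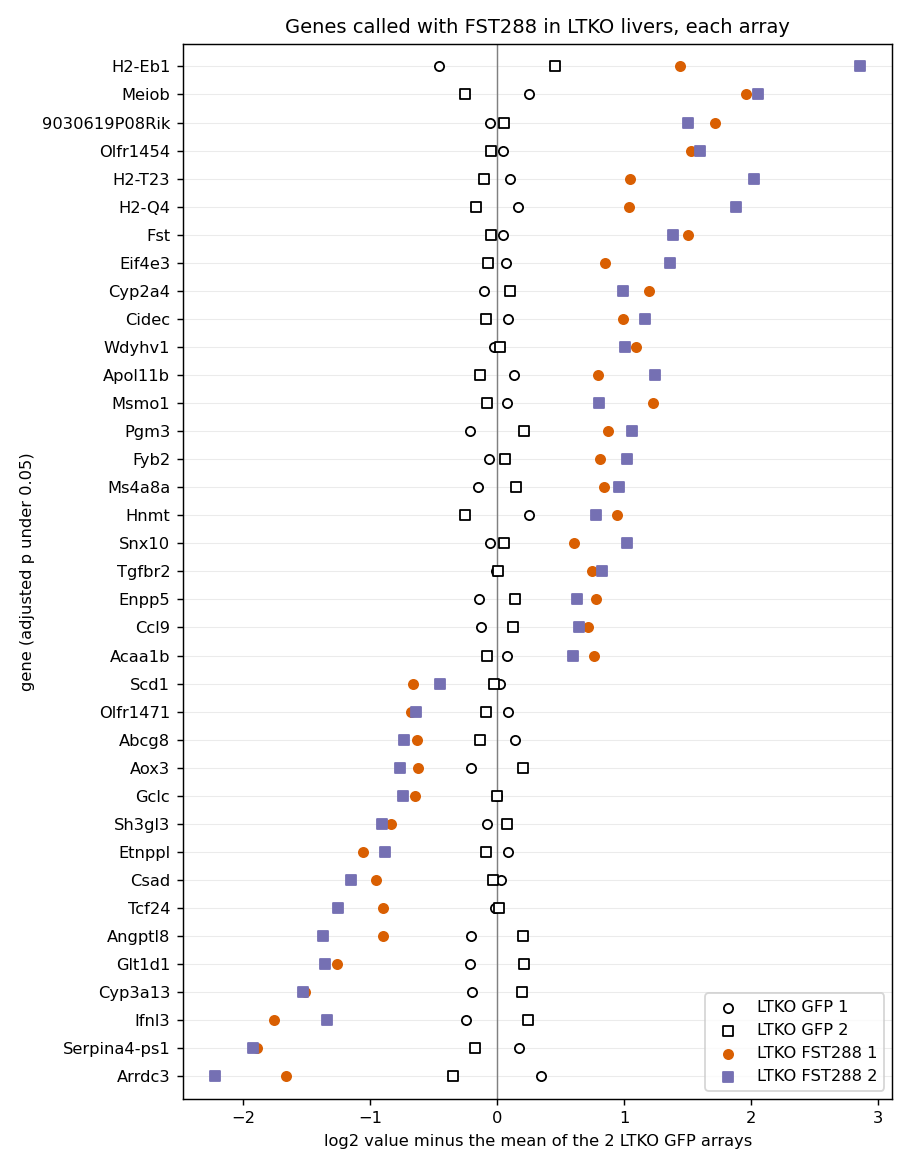
Each of the 37 genes called in LTKO livers (vertical axis) is plotted by its log2 value minus the mean of the 2 LTKO GFP arrays (horizontal axis), with 1 point per array. In every gene both FST288 points lie on the same side of both GFP points; H2-Eb1, H2-T23 and H2-Q4 lie farther out on FST288 replicate 2 than on replicate 1.

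Fst, the gene supplied by the vector, was at 5.39 and 5.30 on the GFP arrays and at 6.85 and 6.74 on the FST288 arrays. It rose by 1.45 ± 0.23 (SE), 2.72-fold (adjusted p = 0.0307), against a rise of 1.08 in HFD livers, and these changes were not shown to differ (adjusted p of the difference 0.662). The probes do not separate vector from mouse transcript. With each array left out in turn, the call of Fst failed in 7 of the 10 fits, with an adjusted p of up to 0.118 without LTKO GFP replicate 2. Of the 32 measured ligands, binders and receptors of the activin and TGF-beta family, Fst and the type II receptor Tgfbr2 rose and none fell. By the same test 0.0992% of all genes rose and 0.0676% fell. The median change of the list was -0.01. Tgfbr2 was at 4.04 and 4.06 with GFP and at 4.80 and 4.87 with FST288, a rise of 0.79 ± 0.14 (adjusted p = 0.0465) that was lost in 9 of the 10 fits (up to 0.156 without LTKO FST288 replicate 2). It was 0.38 higher in HFD livers.

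The hepatic activin subunits did not pass the test. Inhbc was at 7.99 and 8.13 with GFP and at 7.09 and 7.72 with FST288, a difference of -0.66 (adjusted p = 0.214), and Inhbe was at 8.64 and 8.60 against 7.85 and 8.34, a difference of -0.53 (adjusted p = 0.237). For both subunits the FST288 arrays lay below the GFP arrays. Inhba, which rose by 0.98 in HFD livers (adjusted p = 0.0182), was 0.44 higher in LTKO livers (adjusted p = 0.54), and Inhbb was 0.25 lower. The second follistatin-like inhibitor, Fstl3, was at 3.46 and 3.74 with GFP and at 3.66 and 3.44 with FST288. None of 20 SMAD-responsive genes was called, and their median change was -0.10; the hepcidin gene Hamp was at 12.61 and 12.12 against 12.21 and 12.41. Atoh8, a target of BMP signalling in hepatocytes, was at 5.47 and 5.33 with GFP and at 4.96 and 4.69 with FST288, a difference of -0.57 (adjusted p = 0.265) beside a called fall of 0.66 in HFD livers.

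The falls called in every leave-one-out fit came from genes of varied function. In limma's fit of only the 4 LTKO arrays none of them was called (adjusted p from 0.0634 for Cyp3a13 to 0.234 for Gclc). Arrdc3, an alpha-arrestin that guides receptors to degradation, was at 9.20 and 8.50 with GFP and at 7.19 and 6.63 with FST288. It fell by 1.94 ± 0.20, 3.84-fold (adjusted p = 0.00137), against a difference of -0.52 in HFD livers. Serpina4-ps1, a serpin pseudogene, went from 5.94 and 5.60 to 3.88 and 3.85, a fall of 1.90 ± 0.19 (adjusted p = 0.00101). Probes may be shared between a pseudogene and related serpins, so its identity is less certain than that of the other genes. Cyp3a13, a cytochrome P450 of the xenobiotic-metabolising family 3, was at 8.05 and 8.45 with GFP and at 6.74 and 6.72 with FST288. Its fall of 1.52 ± 0.12 (2.87-fold, adjusted p = 0.000241) stood beside a difference of 0.39 in the other direction in HFD livers (adjusted p = 0.0974), and the difference between backgrounds was called (-1.91, adjusted p = 0.00034).

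Csad and Gclc both draw on cysteine. Csad makes hypotaurine, the precursor of taurine; it was at 9.28 and 9.23 with GFP and at 8.30 and 8.10 with FST288, a fall of 1.05 ± 0.13 (2.08-fold, adjusted p = 0.00533). In HFD livers it fell by 1.95, from a lower level: 6.35 to 6.66 with GFP and 4.48 to 4.65 with FST288. Gclc, the catalytic subunit of the first enzyme of glutathione synthesis, was at 10.45 on both GFP arrays and at 9.80 and 9.71 with FST288, a fall of 0.70 ± 0.09 (1.62-fold, adjusted p = 0.00534). Its modifier subunit Gclm was at 9.40 on both GFP arrays and at 9.11 and 8.96 with FST288, a difference of -0.36 that did not pass (adjusted p = 0.159). Gclc was the only member called of 19 NRF2 targets and glutathione transferases, against 0.167% of all genes. The median change of that list was -0.16 (-0.05 without LTKO FST288 replicate 2, -0.30 without replicate 1). Csad was the only member called of 11 enzymes of methionine, cysteine and taurine metabolism. Their median was -0.16 (-0.09 without LTKO FST288 replicate 1). Etnppl, which breaks down phosphoethanolamine, was at 10.10 and 9.93 with GFP and at 8.96 and 9.13 with FST288, a fall of 0.97 ± 0.10 (1.96-fold, adjusted p = 0.00137). Meiob, a DNA-binding protein of meiotic recombination, was the only rise called in every leave-one-out fit. It was at 3.09 and 2.59 with GFP and at 4.80 and 4.90 with FST288, a rise of 2.01 ± 0.18 (4.03-fold, adjusted p = 0.000419). Its GFP level was below the array medians of named genes (3.10 to 3.17). With only the 4 LTKO arrays Meiob was not called (adjusted p = 0.0634).

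Genes of lipid handling moved in both directions. Angptl8, an insulin-responsive inhibitor of lipoprotein lipase, was at 6.96 and 7.37 with GFP and at 6.27 and 5.79 with FST288, a fall of 1.14 ± 0.17 (2.20-fold, adjusted p = 0.0166). Scd1, which desaturates fatty acids, was at 9.99 and 9.94 against 9.31 and 9.52, a fall of 0.55 ± 0.10 (adjusted p = 0.0494). Abcg8, a subunit of the transporter that exports sterols into bile, was at 8.15 and 7.88 against 7.39 and 7.28, a fall of 0.68 ± 0.12 (adjusted p = 0.042). Its partner Abcg5 lay below the GFP arrays on both FST288 arrays too, at 7.57 and 7.36 with GFP and 6.99 and 6.95 with FST288, without passing the test (-0.49, adjusted p = 0.138). Cidec, a protein that joins lipid droplets, rose from 3.83 and 3.66 to 4.74 and 4.91, by 1.08 ± 0.15 (2.11-fold, adjusted p = 0.0142). Acaa1b, a thiolase of peroxisomal fatty acid oxidation, rose from 9.03 and 8.86 to 9.71 and 9.55, by 0.68 ± 0.10 (adjusted p = 0.0151), beside a difference of -0.28 in HFD livers. Each called gene was the only one of its list, against 0.167% called over all genes. These were 1 of 18 lipoprotein genes (median change -0.09) and 1 of 23 genes of fatty acid and triglyceride synthesis (0.07). The others were 1 of 24 of bile acid synthesis and transport (-0.01), 1 of 17 lipid droplet proteins and lipases (0.10) and 1 of 24 of fatty acid oxidation (0.07). Acacb, which makes the malonyl-CoA that restrains fatty acid oxidation, was at 3.52 and 4.12 with GFP and at 5.41 and 4.57 with FST288, a difference of 1.17 that did not pass (adjusted p = 0.12). Fgf21, a fasting hormone of the liver, was at 7.10 and 6.59 with GFP and at 4.70 and 6.40 with FST288 (-1.29, adjusted p = 0.271), low on FST288 replicate 1 alone. The calls of Scd1 and Abcg8 were each lost in 8 of the 10 fits (up to 0.146 and 0.154, both without LTKO GFP replicate 1), those of Angptl8 and Cidec in 2 (up to 0.106 and 0.0801) and that of Acaa1b in 1 (0.0812), these highest values all without LTKO GFP replicate 2.

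Among 17 genes of cholesterol synthesis and uptake, only Msmo1 was called, against 0.167% of all genes. Msmo1, which removes methyl groups from lanosterol products, was at 6.26 and 6.11 with GFP and at 7.41 and 6.99 with FST288, a rise of 1.02 ± 0.14 (2.02-fold, adjusted p = 0.0142) that was lost without LTKO GFP replicate 2 (0.94, adjusted p = 0.0749). In HFD livers it was 0.53 lower (adjusted p = 0.0503), and the difference between backgrounds was called (1.55, adjusted p = 0.00654). Sqle, the epoxidase that precedes lanosterol, was at 5.39 and 4.68 with GFP and at 6.05 and 5.80 with FST288. Its difference of 0.89 did not pass in LTKO livers (adjusted p = 0.12), while the difference between backgrounds did (1.41, adjusted p = 0.0413). The LTKO difference of Sqle was 1.25 without LTKO GFP replicate 1 and 0.54 without LTKO GFP replicate 2. Cyp51 was at 6.40 and 6.28 against 7.21 and 6.67, and Lss, the lanosterol synthase, at 4.58 on both GFP arrays against 5.41 and 4.89, differences of 0.60 and 0.57 that did not pass. The list's median change was 0.31 in LTKO livers and -0.14 in HFD livers, against -0.02 and -0.0031 over all genes. In 9 of the 17 members the FST288 arrays lay above the GFP arrays and in 1 below, against 16.8% and 21.1% of all genes. An unadjusted p under 0.05 was reached by 7 members that were higher and 1 that was lower, against 4.73% and 5.24% of all genes. The shift was larger on FST288 replicate 1, where the median over the list was 0.46 above the GFP mean, than on replicate 2, where it was 0.15. Hmgcs1, an early enzyme of the pathway that fell by 0.87 in HFD livers, differed by -0.07 in LTKO livers.

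**Figure D2:**
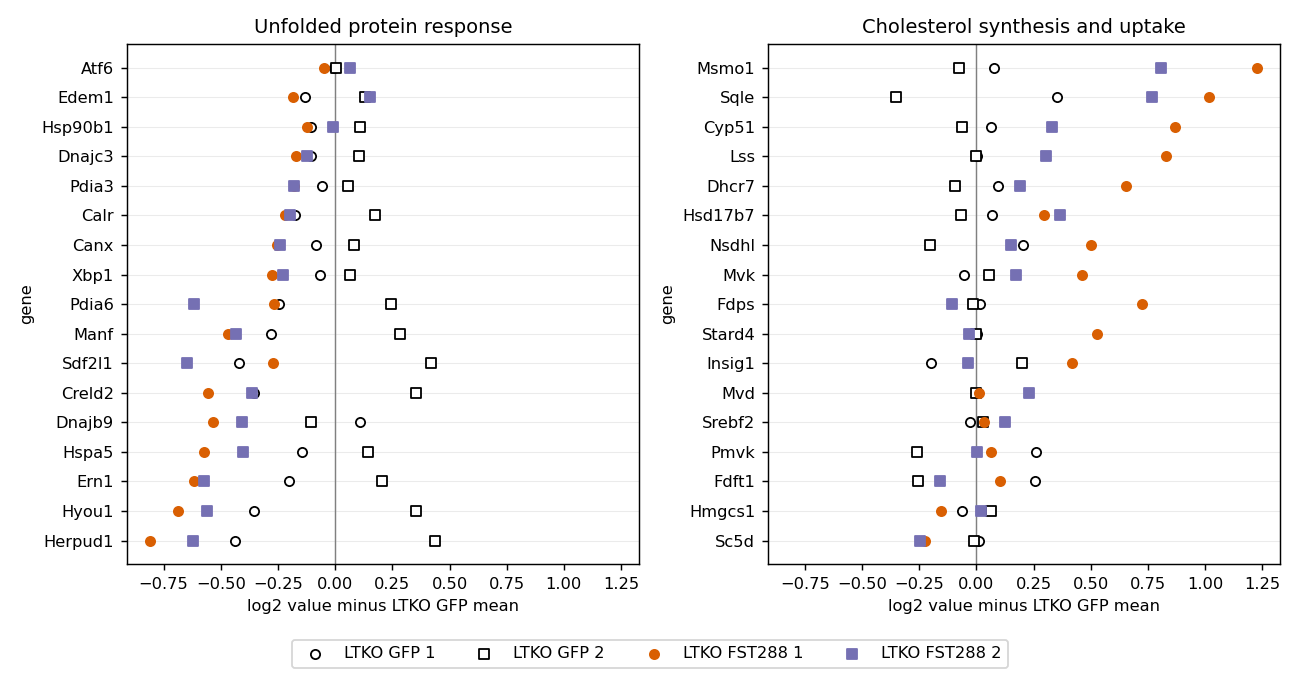
Members of the unfolded protein response list (left) and of the cholesterol list (right) are plotted by their log2 value minus the mean of the LTKO GFP arrays, with 1 point per array. In the unfolded protein response list the FST288 points lie below the GFP points in 13 of 17 genes, with LTKO GFP replicate 2 often the highest; in the cholesterol list they lie above in 9 of 17, with Msmo1 called.

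Chaperones of the unfolded protein response, which cells induce when proteins misfold in the endoplasmic reticulum, were lower on both FST288 arrays in 13 of 17 genes and higher in none, although no member passed the test. Over all genes that pattern held for 21.1% downward. The median change of the list was -0.44 in LTKO livers and 0.10 in HFD livers, and 9 members reached an unadjusted p under 0.05, all of them lower, against 5.24% of all genes. Ern1, the sensor also named IRE1, was at 6.54 and 6.95 with GFP and at 6.13 and 6.17 with FST288, a difference of -0.59 (adjusted p = 0.142). In HFD livers Ern1 differed by 0.49 (adjusted p = 0.056), and the difference between backgrounds was called (-1.08, adjusted p = 0.0296). The chaperone Hspa5 was at 7.96 and 8.25 against 7.53 and 7.70 (-0.49, adjusted p = 0.197), Herpud1 at 9.09 and 9.96 against 8.71 and 8.90 (-0.72, adjusted p = 0.231) and Hyou1 at 7.39 and 8.10 against 7.06 and 7.19 (-0.62, adjusted p = 0.353). GFP replicate 2 was the higher GFP array in each of these 4 genes. Without that array the list's median was -0.16, without FST288 replicate 2 it was -0.27 and without FST288 replicate 1 it was -0.37; with the mean of pan-leukocyte markers as a covariate it was -0.25.

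Some promoters of this list hold a sequence that the values did not use, the endoplasmic reticulum stress response element, and 3 of them are shown because they come from members that were lower together. In RefSeq's GRCm38.p6 promoters the element, written as CCAAT and CCACG with 9 bases of any kind between them and searched on both strands in windows of 300 bases around each gene's start, was found in 7 of the 14 members with a window (50%), which were Hspa5, Creld2, Hsp90b1, Pdia6, Calr, Canx and Dnajc3. It was found in 39 of all 32851 windows (0.119%). The share of members counts a gene if any of its windows matched, whereas the share over all windows counts windows. The 180 bases before the start follow, 5′ to 3′ on the gene's strand, with the element in capitals: Hspa5 on the plus strand at chr2:34771910-34772089, Pdia6 on the plus strand at chr12:17266409-17266588 and Canx on the minus strand at chr11:50325674-50325853.
Hspa5: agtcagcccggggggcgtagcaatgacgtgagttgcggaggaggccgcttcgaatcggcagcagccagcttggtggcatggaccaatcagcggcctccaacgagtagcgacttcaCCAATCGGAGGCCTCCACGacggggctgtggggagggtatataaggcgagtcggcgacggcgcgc
Pdia6: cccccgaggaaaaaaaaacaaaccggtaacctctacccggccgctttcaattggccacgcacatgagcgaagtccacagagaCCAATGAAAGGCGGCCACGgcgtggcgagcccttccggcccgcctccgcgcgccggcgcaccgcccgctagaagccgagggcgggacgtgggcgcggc
Canx: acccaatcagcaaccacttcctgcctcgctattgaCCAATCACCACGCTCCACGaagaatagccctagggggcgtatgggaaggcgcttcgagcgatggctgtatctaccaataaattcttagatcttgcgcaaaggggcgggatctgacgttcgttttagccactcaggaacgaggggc
Pdia6, a disulfide isomerase, was at 9.20 and 9.69 with GFP and at 9.18 and 8.83 with FST288 (-0.44), and Canx, the lectin chaperone calnexin, at 9.99 and 10.16 against 9.82 and 9.84 (-0.25). Neither passed the test, and a match to the element is a description of these windows.

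No gene of glucose production passed the test in LTKO livers. Of 20 FoxO1-responsive genes Fst, which the vector supplies, was the only member called, against 0.167% of all genes. Its probes do not separate vector from mouse transcript, so that call is not read as a response of the mouse gene. The median change of the list was 0.04. In it 7 members, Fst among them, lay higher on both FST288 arrays and 1 lower, against 16.8% and 21.1% of all genes. Igfbp1, a fasting-induced binding protein for insulin-like growth factors, was at 7.99 and 9.27 with GFP and at 9.85 and 10.24 with FST288. The GFP arrays differed by more than 1 from each other, and the difference of 1.41 ± 0.29 did not pass (adjusted p = 0.104). It was 2.05 without LTKO GFP replicate 2 and 0.78 without LTKO GFP replicate 1. Pck1, the enzyme that commits oxaloacetate to gluconeogenesis, was at 10.62 and 10.84 against 10.98 and 11.37 (0.45, adjusted p = 0.237). G6pc, which releases free glucose, was at 9.26 and 9.85 against 9.88 and 10.38 (0.57, adjusted p = 0.278). Both enzymes were higher on each FST288 array than on either GFP array, by less than the test could call. No member was called among 17 gluconeogenesis genes (median 0.02), 13 glycolysis genes (0.07) or 22 insulin signalling genes (-0.06), and none of the 22 reached an unadjusted p under 0.05. Pklr, the liver pyruvate kinase, was at 6.35 and 6.99 with GFP and at 7.46 and 7.08 with FST288 (0.60, adjusted p = 0.284).

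**Figure D3:**
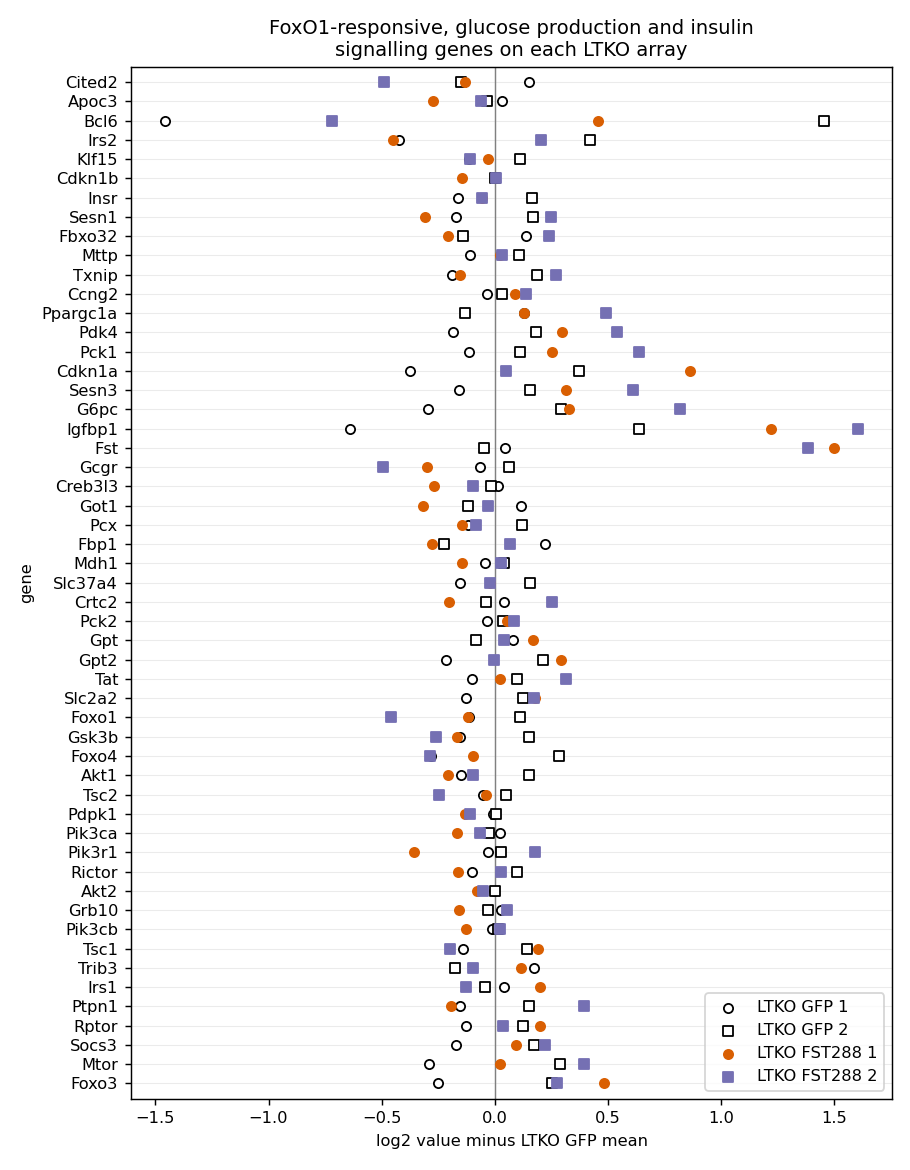
FoxO1-responsive, gluconeogenesis and insulin signalling genes are plotted by their log2 value minus the mean of the LTKO GFP arrays, with 1 point per array. Fst, which the vector supplies, is the only gene called. The points of Igfbp1, Pck1 and G6pc lie higher on both FST288 arrays, and those of Igfbp1 are spread by more than 1 between the GFP arrays.

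Of the antigen-presenting genes, 2 of 13 of MHC class I and 1 of 11 of class II rose, against 0.0992% of all genes. These lists, like the others, were chosen with earlier results of these data known. H2-T23, a non-classical MHC class I gene, was at 5.14 and 4.94 with GFP and at 6.09 and 7.07 with FST288, a rise of 1.54 ± 0.23 (2.90-fold, adjusted p = 0.0166). H2-Q4, another class I gene, was at 4.92 and 4.59 against 5.80 and 6.64, a rise of 1.46 ± 0.21 (2.76-fold, adjusted p = 0.0151). H2-Eb1, a chain of the class II molecule, was at 3.20 and 4.12 against 5.10 and 6.52, a rise of 2.15 ± 0.37 (4.45-fold, adjusted p = 0.042). All 3 were higher on FST288 replicate 2 than on replicate 1. Without FST288 replicate 2, H2-T23 was 1.05 higher (adjusted p = 0.0218) and H2-Q4 1.04 higher (adjusted p = 0.0293), both still called. H2-Eb1 was then 1.45 higher and no longer called (adjusted p = 0.122); its call was lost in 8 of the 10 fits, up to 0.173 without LTKO GFP replicate 1. Without LTKO GFP replicate 2 the calls of H2-T23 (1.43, adjusted p = 0.0997) and H2-Q4 (1.30, adjusted p = 0.0943) were lost, and that of H2-T23 also without LTKO GFP replicate 1 (1.64, adjusted p = 0.0537). MHC genes are near copies of each other, so probes may be shared among them. H2-Q4 has several transcript clusters, and their mean rose less and was not called (0.90, adjusted p = 0.117). In HFD livers the 3 genes differed by -0.08, -0.20 and -0.18, and the difference between backgrounds was called for H2-T23 (1.62, adjusted p = 0.0495) and H2-Q4 (1.66, adjusted p = 0.0347).

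Other MHC and interferon-stimulated genes were high mainly on FST288 replicate 2 and did not pass the test. The median change was 0.51 over the 13 class I genes and 0.77 over the 11 class II genes, with FST288 replicate 2 the highest of the 4 LTKO arrays in 13 of 13 and in 10 of 11, against 23.3% of all genes. H2-Ab1 was at 6.92 and 6.32 with GFP and at 7.75 and 9.91 with FST288 (2.21, adjusted p = 0.121), and H2-Aa at 4.52 and 4.48 against 5.32 and 7.61. None of 27 interferon-stimulated genes was called, with a median change of 0.48. FST288 replicate 1 lay a median of 0.06 above the GFP mean over these 27 genes and replicate 2 a median of 0.84, and replicate 2 was the highest in 20. The GTPase Igtp was at 5.57 and 5.07 with GFP and at 5.94 and 9.63 with FST288 (2.47, adjusted p = 0.271), and the T cell attractant Cxcl9 at 5.95 and 5.34 against 5.82 and 9.12. Iigp1, another interferon-inducible GTPase, was at 9.01 and 9.02 against 9.37 and 10.61. Ifnl3, an interferon lambda gene, fell from 4.39 and 4.88 to 2.88 and 3.29, by 1.55 ± 0.21 (2.93-fold, adjusted p = 0.0142), a call that was lost without LTKO GFP replicate 2 (adjusted p = 0.0783). The levels of Ifnl3 are low: its HFD arrays lay between 3.51 and 4.02.

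Several lists of immune cell markers were also highest on FST288 replicate 2. The median of 12 Kupffer cell markers, the resident macrophages of the liver, was 5.83 and 5.79 on the GFP arrays, 5.95 on FST288 replicate 1 and 7.06 on replicate 2, which was the highest of the 4 in all 12. All 12 were above the array median of named genes. The median of 12 pan-leukocyte markers was 3.92 to 3.96 with GFP and 3.96 and 4.79 with FST288. Ptprc (CD45), carried by leukocytes in general, was at 5.19 and 4.59 with GFP and at 5.05 and 6.65 with FST288. The macrophage gene Adgre1 was at 4.55 and 4.41 against 5.27 and 6.46 (1.39, adjusted p = 0.149), and Marco at 4.82 and 4.40 against 5.48 and 7.59. No marker of any of the 18 cell type lists passed the test. The 12 markers of monocytes and recruited macrophages lay a median of -0.09 from the GFP mean on replicate 1 and 0.69 on replicate 2. The 11 NK and cytotoxic cell markers lay at -0.11 and 0.38. Of these lists, 5 and 2 markers were above the array median of named genes. The T cell, dendritic cell, B and plasma cell and neutrophil lists differed less between the FST288 arrays. The 12 T cell markers lay a median of 0.13 above the GFP mean on replicate 1 and 0.17 on replicate 2, the 9 dendritic cell markers -0.08 and 0.03, and the 10 B and plasma cell markers -0.08 and 0.07. Neutrophil markers had medians of 2.19 to 2.28 on all 4 arrays. Some lists of other cells also differed between the FST288 arrays. The 11 stellate cell and fibroblast markers lay at -0.01 on replicate 1 and 0.35 on replicate 2, and the 5 mesothelium markers at 0.10 and 0.27. The 11 sinusoidal endothelium markers lay at -0.08 and -0.07, the 8 cholangiocyte markers at -0.02 and -0.07 and the 5 adipocyte markers at -0.06 and -0.35. In a bulk sample, more cells of a type and more RNA per cell cannot be told apart. With the mean of the pan-leukocyte markers of each array as a covariate, H2-T23 was 1.02 higher (adjusted p = 0.0293) and H2-Q4 1.03 higher (adjusted p = 0.0428), both still called; H2-Eb1 was 1.44 higher and not called (adjusted p = 0.171), and the median of the interferon-stimulated genes was 0.05. That fit kept 16 of the 37 calls and lost 21, among them those of Angptl8 (adjusted p = 0.107), Fst (0.0782), Cidec (0.0889), Scd1 (0.0897) and Tgfbr2 (0.219). It also called genes that had not passed: Acacb was 1.67 higher and Per1 1.35 higher (adjusted p = 0.00538 for each), Cyp2b9 1.78 higher (0.0302), Cyp17a1 1.5 higher (0.0333) and Fgf21 had a change of -2.13 (0.0108). Among the LTKO arrays the pan-leukocyte markers were high on FST288 replicate 2 alone. The covariate therefore cannot separate immune cells from any other trait of that array. The part of immune cells in the results for MHC and interferon-stimulated genes was not tested.

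**Figure D4:**
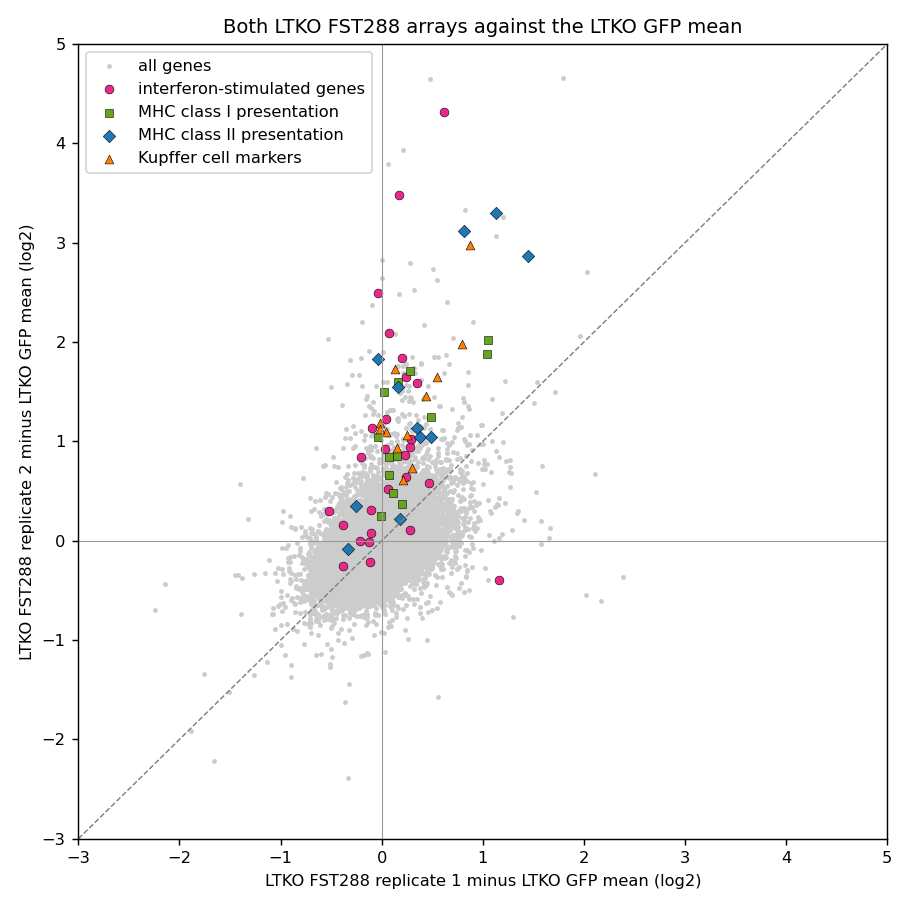
Every gene is plotted by its value on LTKO FST288 replicate 1 (horizontal axis) and replicate 2 (vertical axis), each minus the mean of the LTKO GFP arrays, in log2 units, with the dashed line marking equal values. Interferon-stimulated genes, MHC genes and Kupffer cell markers lie mostly above the line, with medians of 0.84, 1.05 (class I), 1.14 (class II) and 1.15 on replicate 2 against 0.06, 0.15, 0.35 and 0.23 on replicate 1.

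The promoters of several of these genes hold GAAA and GAAA again with 2 bases of any kind between, the core of the interferon-stimulated response element, and 3 are shown because each of these genes was at its highest among the 4 LTKO arrays on FST288 replicate 2. Searched on both strands in the same windows, it was found in 13 of the 21 interferon-stimulated genes with a window (61.9%). The 3 of 11 class I genes (27.3%) that held it were B2m, H2-T23 and Erap1. It was found in 1131 of all 32851 windows (3.44%), which is again a share of windows and not of genes. The windows of 180 bases before the start, with the matched letters in capitals, are H2-T23 on the minus strand at chr17:36032702-36032881, Igtp on the plus strand at chr11:58199376-58199555 and Irgm1 on the minus strand at chr11:48871421-48871600, where 2 matches overlap.
H2-T23: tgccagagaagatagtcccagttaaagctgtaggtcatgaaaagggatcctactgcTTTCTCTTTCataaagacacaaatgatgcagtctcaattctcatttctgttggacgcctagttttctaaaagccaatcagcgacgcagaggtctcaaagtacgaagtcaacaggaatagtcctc
Igtp: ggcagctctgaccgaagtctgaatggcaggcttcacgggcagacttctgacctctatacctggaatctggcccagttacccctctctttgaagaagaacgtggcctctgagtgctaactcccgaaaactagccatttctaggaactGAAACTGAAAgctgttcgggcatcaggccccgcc
Irgm1: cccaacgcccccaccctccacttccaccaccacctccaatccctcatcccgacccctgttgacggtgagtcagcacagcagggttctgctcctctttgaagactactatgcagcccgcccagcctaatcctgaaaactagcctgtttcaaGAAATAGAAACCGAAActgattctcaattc
The match in H2-T23 reads on the opposite strand, as the complement of the letters searched. Irgm1, a GTPase of the same family as Igtp, was at 4.80 and 4.79 with GFP and at 5.04 and 6.44 with FST288. A match is again a description of the window. The letters were not found in the window of H2-Q4.

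The chemokine Ccl9 rose in a different pattern, from 8.17 and 8.41 with GFP to 9.01 and 8.93 with FST288, by 0.68 ± 0.10 (1.60-fold, adjusted p = 0.0161), and by 0.55 in HFD livers (adjusted p = 0.0055). Its LTKO call was lost without LTKO GFP replicate 1 (adjusted p = 0.0739). Both FST288 arrays were at about the same level. Ccl9 was the only one called of 30 chemokines, cytokines and receptors (median change 0.06), against 0.167% of all genes.

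Among 27 cytochrome P450 genes of families 1 to 3 and their receptors, Cyp3a13 fell and Cyp2a4 rose (median change 0.03). The shares over all genes were 0.0676% lower and 0.0992% higher. Cyp2a4, a steroid hydroxylase that is higher in female than in male mouse liver, was at 7.51 and 7.72 with GFP and at 8.81 and 8.60 with FST288, a rise of 1.09 ± 0.18 (2.14-fold, adjusted p = 0.0339) beside a difference of -0.06 in HFD livers. That call was lost in 6 of the 10 fits, up to 0.127 without LTKO GFP replicate 1. Cyp2b9, another female-predominant P450, was at 3.25 and 2.96 with GFP and at 4.91 and 7.77 with FST288, a difference of 3.23 ± 0.59 just outside the threshold (adjusted p = 0.0519) with the FST288 arrays far apart. Cyp17a1, a steroid-converting P450, was at 7.80 and 8.41 against 9.38 and 8.92 (1.04, adjusted p = 0.179), beside a called rise of 1.16 in HFD livers. Of 15 female-predominant genes 1 was called, 7 were higher on both FST288 arrays and none was lower on both (median change 0.26), against 0.167% called, 16.8% higher and 21.1% lower over all genes. None of 17 male-predominant genes was called; their median was -0.09, and it was 0.16 without LTKO FST288 replicate 2 and -0.30 without replicate 1.

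The remaining calls were single genes of varied function, several of them dim. Glt1d1, a glycosyltransferase, fell from 5.32 and 5.75 to 4.27 and 4.18, by 1.31 ± 0.18 (2.48-fold, adjusted p = 0.0142). Aox3, an aldehyde oxidase of liver, fell from 9.25 and 9.65 to 8.83 and 8.68, by 0.69 ± 0.11 (adjusted p = 0.0345), and Tcf24, a helix-loop-helix factor, from 6.87 and 6.90 to 5.98 and 5.63, by 1.07 ± 0.19 (adjusted p = 0.0465). Wdyhv1, an amidohydrolase that acts on N-terminal glutamine, rose from 5.23 and 5.28 to 6.35 and 6.26, by 1.05 ± 0.15 (adjusted p = 0.0142), but the mean of its transcript clusters differed by 0.35 (adjusted p = 0.379). Eif4e3, a cap-binding protein, rose from 3.86 and 3.72 to 4.65 and 5.15, by 1.11 ± 0.17 (adjusted p = 0.0181). Pgm3, an enzyme of UDP-N-acetylglucosamine synthesis, rose from 5.14 and 5.57 to 6.23 and 6.42 (0.97), and Hnmt, which methylates histamine, from 5.33 and 4.83 to 6.03 and 5.86 (0.87). The unnamed locus 9030619P08Rik rose from 4.85 and 4.97 to 6.63 and 6.41 (1.61, adjusted p = 0.0142). Fyb2, an adaptor protein, rose by 0.92 from a GFP mean of 3.39. Snx10, a sorting nexin, and Enpp5 rose by 0.82 and 0.71; both and the olfactory receptor Olfr1471 were chosen after their values were seen. Apol11b, Ms4a8a, Olfr1454, Olfr1471 and Sh3gl3 had means over the 10 arrays below the array medians of named genes, where a signal is hard to tell from background; Olfr1454 was at 2.12 and 2.02 with GFP and at 3.60 and 3.67 with FST288 (1.57, adjusted p = 0.00931) and Sh3gl3 at 2.93 and 3.08 against 2.17 and 2.10 (-0.87, adjusted p = 0.0345). Over the 10 leave-one-out fits, the call was lost in 1 for Glt1d1 and Olfr1454, in 2 for Wdyhv1 and 9030619P08Rik, in 3 for Eif4e3, in 7 for Pgm3 and Tcf24, in 8 for Aox3, Sh3gl3 and Ms4a8a, in 9 for Hnmt, Fyb2, Snx10, Enpp5 and Apol11b, and in all 10 for Olfr1471. The highest adjusted p in these fits was 0.203, for Snx10 without LTKO FST288 replicate 2.

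The same viruses in wild-type livers on a high-fat diet changed 221 genes (0.996%). That comparison had 3 arrays a group against 2 in LTKO livers, so the numbers of calls are not like for like. In both backgrounds 8 genes were called: Csad, Etnppl, Gclc, Aox3 and Tcf24 fell in both, and Fst, Ccl9 and 9030619P08Rik rose in both. They are 21.6% of the LTKO calls and 3.62% of the HFD calls. Etnppl, which fell by 0.97 in LTKO livers, fell by 0.84 in HFD livers (adjusted p of the difference 0.726), and Gclc fell by 0.70 and 0.33. Of the 37 LTKO calls 20 had the same sign in HFD livers and 17 the opposite sign. In the other direction, 147 of the 221 HFD calls had the same sign in LTKO livers. The difference between backgrounds itself was called in 48 genes (0.216%), of which 13 were LTKO calls. In Cyp3a13, Meiob (2.10, adjusted p = 0.00506), Msmo1, Acaa1b (0.96, adjusted p = 0.0104), Wdyhv1, Ifnl3 (-1.75, adjusted p = 0.028), Glt1d1 (-1.40, adjusted p = 0.0384), H2-T23, H2-Q4 and Olfr1454 the HFD change was not called. Arrdc3 and Serpina4-ps1 fell by 1.42 and 1.32 more in LTKO than in HFD livers (adjusted p = 0.0495 for each), where their differences were -0.52 and -0.58. Csad fell by 0.90 less in LTKO livers (adjusted p = 0.0495). Without HFD FST288 replicates 2 and 3, the arrays high in acinar markers, the 48 calls of a difference dropped to 1. The part of those arrays in the differences and in the 221 HFD calls was not tested. Background, diet and any difference in handling of the LTKO and HFD mice cannot be told apart.

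**Figure D5:**
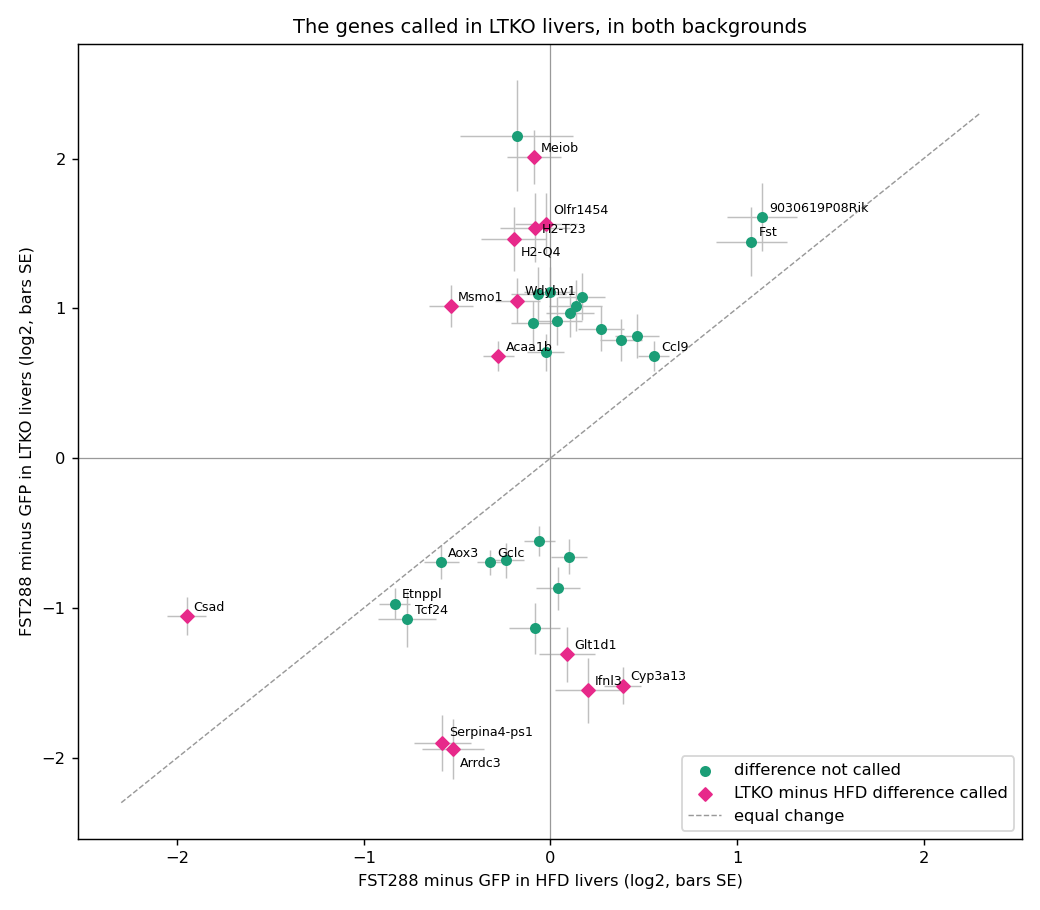
The 37 genes called in LTKO livers are plotted by their change with FST288 in HFD livers (horizontal axis) and in LTKO livers (vertical axis), in log2 units with bars of 1 SE; diamonds mark the 13 genes in which the difference between backgrounds was called. Etnppl lies near the dashed line of equal change, Csad changed more in HFD livers, and Cyp3a13 and Meiob lie near or across the zero of the HFD axis.

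Of 51 lists with 760 distinct measured genes, 36 had no member called, among them oxidative phosphorylation (0 of 27, median change -0.12), the urea cycle (0 of 17, -0.06), cell cycle drivers (0 of 29, -0.03) and collagens (0 of 27, 0.01). The lists held 16 of the 37 called genes, which are 2.11% of the list genes beside 0.167% of all genes tested, and the other 21 belonged to none. The lists were chosen for this tissue with earlier results known, so nothing is read from that share.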

How the data were processed

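Liver RNA of 10 samples was profiled on Affymetrix whole-transcript arrays. Per the submitters' processing notes the arrays were processed by RMA in Affymetrix Expression Console, and the deposited values are log2 RMA values; per the labels' protocols, label was made from 500 ng of RNA. Genome build and software version are not given in the sources used here. Groups came from sample titles. Clusters with several symbols (1814) or not listed (16010) were left out, and 1082 genes with several clusters took the one with the highest mean. All genes were fitted with limma 3.58.1 in R 4.3.3 (1 mean per group over the 10 arrays, intensity trend, 6 residual and 7.155 prior degrees of freedom), with two-sided tests, Benjamini-Hochberg adjustment over 22180 genes, a threshold of 0.05 and no filter on low values. The fit was tested on simulated data.

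The comparison and the lists (894 entries, 816 measured, 78 not analysed here) were chosen with earlier results of these data known. Named genes are, by a rule, the 15 called genes with the largest change in each direction without unnamed loci, receptors of smell and the like (at least 10 by unadjusted p), those called in every leave-one-out fit, the 3 lowest p-values of each list, the 10 called genes with the smallest p for the difference between backgrounds, those called in both backgrounds, and a fixed set (such as the vector's and deleted genes, G6pc, Pck1, Igfbp1, activin subunits and Ptprc); other names, such as single members that illustrate a list, were chosen after their values were seen. Alternatives left out arrays, changed the variance model, array weights, normalization, filter on dim genes, choice of clusters and threshold, or added a replicate block or a pan-leukocyte covariate.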

Additional observations from a re-analysis of the deposited data

Results flagged for a closer look

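The change with FST288 differed between LTKO and HFD livers, by limma's test of the difference itself, in 15 of the genes named by rule. Part of that rule picks called genes by the smallest p for this same difference. The count of 15 therefore follows in part from selection, and no share is read from it. Over all 22180 genes the difference was called in 48 (0.216%). Each difference is the LTKO change minus the HFD change on the log2 scale. For genes that were higher with FST288 in LTKO livers it was 2.10 for Meiob (adjusted p = 0.00506), 1.66 for H2-Q4 (0.0347), 1.62 for H2-T23 (0.0495), 1.59 for Olfr1454 (0.0347), 1.55 for Msmo1 (0.00654), 1.41 for Sqle (0.0413), 1.23 for Wdyhv1 (0.028) and 0.96 for Acaa1b (0.0104). For genes that were lower in LTKO livers it was -1.91 for Cyp3a13 (0.00034), -1.75 for Ifnl3 (0.028), -1.42 for Arrdc3 (0.0495), -1.40 for Glt1d1 (0.0384), -1.32 for Serpina4-ps1 (0.0495) and -1.08 for Ern1 (0.0296). Csad had a difference of 0.90 (0.0495) because it fell by 1.95 in HFD livers and by 1.05 in LTKO livers. Sqle and Ern1 had opposite signs in the backgrounds, 0.89 and -0.59 in LTKO livers against -0.52 and 0.49 in HFD livers, and neither was called within a background. The groups have 2 or 3 arrays, too few to test for single outlying samples. LTKO FST288 replicate 2 stood apart from the other LTKO arrays, and H2-T23 and H2-Q4 were higher on it than on replicate 1.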

How the results depend on the processing

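For single named genes, 3299 of 3690 values under the alternatives kept their side of the threshold, 332 lost a call and 59 gained one. The sign turned in 16 values of 11 genes, none of them called in either fit. List medians near 0 also turned. Medians of lists moved by more than the spread of the arrays in 67 of 1113 cases, 16 of them without LTKO FST288 replicate 1, 16 without replicate 2 and 16 with the pan-leukocyte covariate. As reported, limma called 37 genes (22 higher, 15 lower) and 48 differences between backgrounds. With only the 4 LTKO arrays, limma called 0 (0 higher, 0 lower), with 1665 genes at an unadjusted p under 0.05; that fit has fewer arrays to estimate the spread. Without HFD FST288 replicates 2 and 3 it called 16 (8 higher, 8 lower) and 1 difference; without the intensity trend 16 (8 and 8) and 3; with array weights 22 (12 higher); over all transcript clusters 15 (4 higher) and 6 differences; at an adjusted p under 0.1, 58 (35 and 23) and 155. Genes with a mean of at least 4 gave 94 differences, the replicate block 28 and the pan-leukocyte covariate 22. Leaving out 1 array gave 21 to 237 genes (11 to 204 higher, 9 to 33 lower) and 11 to 266 differences, with 237 and 266 without LTKO FST288 replicate 1, where FST288 replicate 2 stands alone and is assumed to vary like the other groups. The cause was not tested. The replicate numbers did not pair the arrays: deviations of same-numbered LTKO arrays had a correlation of -0.068, and the replicate block called 32 genes and lost 14 of the 37. Large gaps between the FST288 replicates, dim signals and 2 arrays a group limit what can be called.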

Other observations

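Acute phase proteins, which the liver secretes in inflammation, were not called in any of 27 genes. Their median change was 0.16 (0.03 without LTKO FST288 replicate 2, 0.02 with the pan-leukocyte covariate). In 8 of the 27 the FST288 arrays lay above the GFP arrays and in 5 below, against 16.8% and 21.1% of all genes. Saa2 was at 4.64 and 4.11 with GFP and at 6.40 and 7.07 with FST288, a difference of 2.37 ± 0.45 (adjusted p = 0.0703), and Orm2 at 5.09 and 5.49 against 5.86 and 6.64 (0.96, adjusted p = 0.187). Both genes were higher on each FST288 array than on either GFP array, and highest on FST288 replicate 2, the array with the highest Kupffer cell markers. Their part in these values was not tested. Mug1, an abundant protease inhibitor of the alpha-2-macroglobulin family, was at 12.21 and 12.28 with GFP and at 11.69 and 11.93 with FST288 (-0.43, adjusted p = 0.0696). Its relative Mug2, which fell by 1.89 in HFD livers, differed by -1.47 in LTKO livers (adjusted p = 0.181). With the pan-leukocyte covariate both were called (-0.57 and 0.0123 for Mug1, -2.18 and 0.0202 for Mug2).

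The clock and glucocorticoid-responsive gene Per1 was at 4.17 and 4.45 with GFP and at 5.57 and 5.0 with FST288, 0.98 ± 0.19 higher (adjusted p = 0.0745). The immediate-early factor Egr1 was 1.00 higher (adjusted p = 0.0519) and the p53 target Btg2 1.01 higher (adjusted p = 0.138). No member was called of 17 clock genes (median change 0.06), 13 glucocorticoid-responsive genes (0.26) or 17 p53 targets (0.35). The median of the p53 targets was 0.02 without LTKO FST288 replicate 1 and 0.08 without LTKO GFP replicate 1. With the pan-leukocyte covariate Per1 was called (1.35, adjusted p = 0.00538). The time of day at which each liver was taken is not given in the labels.

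A group of genes was apart between the FST288 replicates without a call. Gbp10, an interferon-inducible guanylate-binding protein, was at 4.90 and 4.37 with GFP and at 4.85 and 8.57 with FST288. Hsd3b5, a steroid dehydrogenase that is predominant in male liver, was at 7.78 and 6.50 with GFP and at 6.80 and 4.75 with FST288. Selenbp2 was at 4.87 and 7.97 with GFP and at 8.59 and 5.81 with FST288, so that its spread was as wide within both groups.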
